A study of Homo sapiens with 6 samples.

Results

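The genes described here are regulators of the passage from G1 into S phase of the cell cycle, a set of 10 genes: CCND1, CCND3, CCNE1, CCNE2, CDC25A, CDC6, E2F1, CDK2, CDKN1A and CDKN1B. They were found by gene symbol in the platform annotation of the array, taking the brightest transcript cluster (the set of probes that reads a gene) by its mean over 6 arrays. Of the 10 genes, 8 had a transcript cluster, 1 each, among the 14884 gene symbols and 53617 transcript clusters of the series. CDKN1A and CDKN1B had no named transcript cluster and are not analysed here. Each array measured MDA-MB-231 cells, a human triple-negative breast cancer line of mesenchymal character. The Control group (3 arrays) held cells that the labels describe as untreated, whereas the methods describe the controls of the in vitro work as given vehicle. The SAM group (3 arrays) held cells given S-adenosylmethionine (SAM), the methyl donor of the cell. By the methods the dose for the arrays was 200 μM. The paper's plan for all its in vitro work added SAM every other day, from day 2 to harvest. It states day 7 as the end for the proliferation and viability assays, and not separately for the arrays. The RNA came from 3 independent experiments on a single cell line, so the spread between arrays is that between cultures of this line. Control replicate 2 was the lowest of the 6 arrays for all 8 measured genes, by little in some of them. The fold change of each of these genes is therefore given with and without that array.

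Entry into S phase is set by cyclin-dependent kinases. D-type cyclins, made in response to mitogens, activate CDK4 and CDK6, which begin to phosphorylate the retinoblastoma protein and so free the E2F transcription factors. E2F1 and its relatives then switch on the E-type cyclins, CDC25A, CDC6, E2F1 itself and much of the replication machinery. Cyclin E activates CDK2, CDC25A removes inhibitory phosphates from CDK2, and the inhibitors p21 (CDKN1A) and p27 (CDKN1B) hold the kinase back. In triple-negative breast cancer this switch is often disturbed, and MDA-MB-231 cells are known to have lost the CDK4 and CDK6 inhibitor gene CDKN2A.

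E2F factors bind sites that resemble TTTCCCGC, TTTCGCGC, TTTGCCGC and TTTGGCGC. These 4 words were searched on both strands of the 300 bases around the start of each gene in RefSeq (GRCh38.p14), of which 250 lie before the start. RefSeq windows were matched for 7 of the 10 genes (9 windows), among them CDKN1A and CDKN1B, which the arrays did not measure. CCND1, CCNE2 and CDK2 had no matched window and were not searched. Of the 7 genes, 3 (CDC25A, E2F1 and CDC6) held at least 1 of the words, as did 3.31% of all 35116 windows. The last 100 bases before the start and the 20 bases from it are shown for these 3 genes and for CCNE1, since CDC25A and CCNE1 are among the genes that differed most between the groups and E2F1 encodes the factor of this family among them. Capitals mark the words found, and the bases run 5′ to 3′ along the gene.

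CDC25A promoter, chr3:48188398-48188517, minus strand: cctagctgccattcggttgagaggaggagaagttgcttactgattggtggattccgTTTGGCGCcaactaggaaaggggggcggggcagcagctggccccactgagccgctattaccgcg

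E2F1 promoter, chr20:33686366-33686485, minus strand: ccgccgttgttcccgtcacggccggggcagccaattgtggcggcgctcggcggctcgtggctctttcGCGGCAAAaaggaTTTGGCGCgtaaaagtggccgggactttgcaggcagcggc

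CDC6 promoter, chr17:40287779-40287898, plus strand: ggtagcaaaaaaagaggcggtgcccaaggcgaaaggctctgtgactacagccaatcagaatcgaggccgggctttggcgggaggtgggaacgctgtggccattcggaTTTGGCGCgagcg

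CCNE1 promoter, chr19:29811891-29812010, plus strand: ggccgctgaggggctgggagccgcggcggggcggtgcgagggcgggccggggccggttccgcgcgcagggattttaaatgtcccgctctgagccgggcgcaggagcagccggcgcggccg

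With the first transcribed base counted as 0, TTTGGCGC began at -44 in CDC25A, at -20 in E2F1 and at 7 in CDC6. E2F1 also held TTTGCCGC on the other strand at -33, and none of the words found overlapped another. The search found none (0) in the CCNE1 window, which says only that these letters are not in it.

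CDK2, CDC25A and CCNE1 were higher in SAM-treated than in Control MDA-MB-231 cells in every array, by 1.37- to 1.45-fold, and the remaining 5 genes had overlapping groups. The log2 fold change was above 0 in all 8 genes, as it was in 45.8% of the 14884 named genes. It ranged from 0.0026 in CCND1 to 0.72 in CCNE2, with a median of 0.39 against a median of -0.02 over all named genes. By limma's moderated test, with the thresholds of the study's methods (unadjusted P under 0.01 and a fold change over 1.5), 0 of the 8 genes passed. The same thresholds were passed by 1.09% of all transcript clusters and 0.699% of the named genes. At an unadjusted P under 0.05 there were 3 of 8, all higher, against 3.59% of transcript clusters and 2.64% of named genes that were higher at this P. Adjusted over all transcript clusters by the Benjamini-Hochberg method, the p-values of the 8 genes lay between 0.574 and 0.997 in limma, and none (0) of the 53617 transcript clusters had an adjusted p under 0.05. The 3 genes with groups apart compare with 6.84% of named genes whose 3 SAM arrays all lay above the 3 Control arrays.

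**Figure D1:**
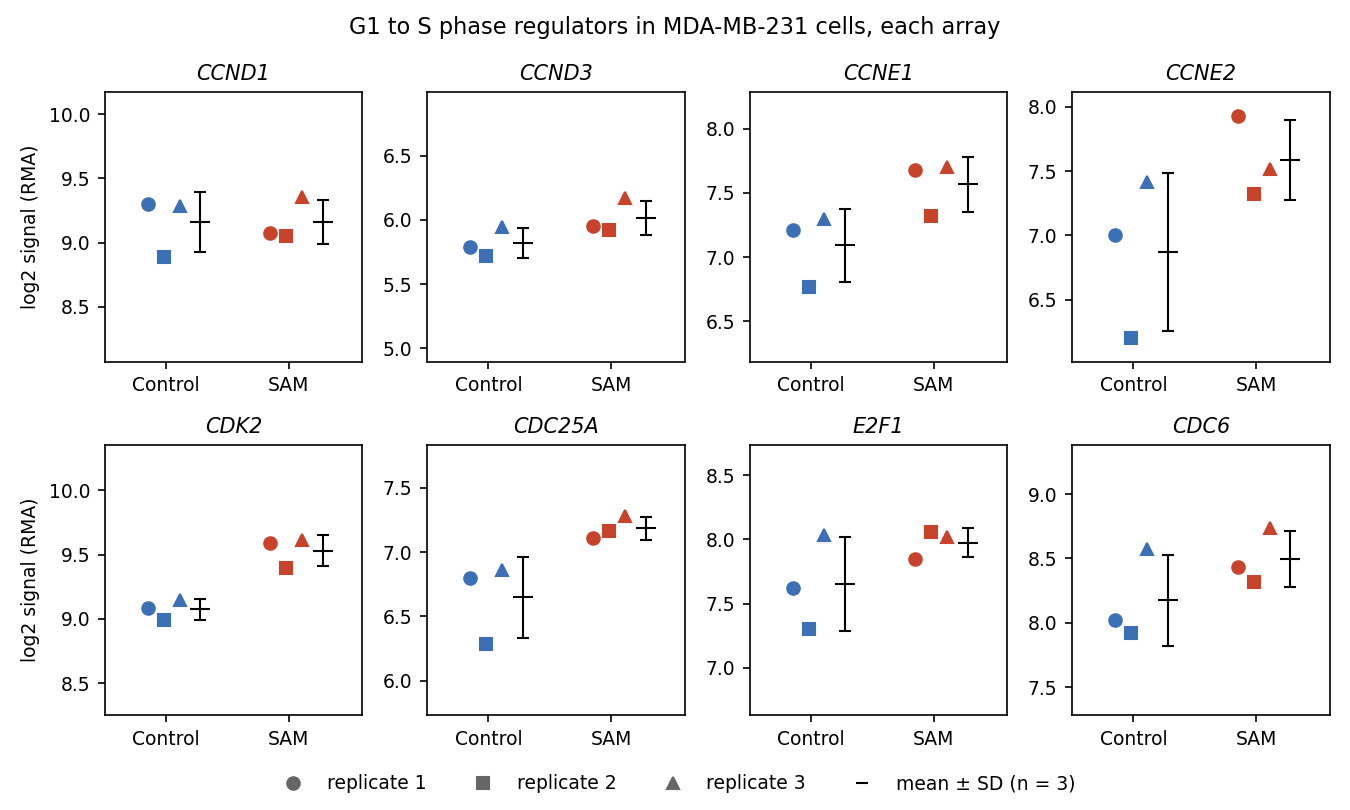
Log2 signal (RMA) of the 8 measured genes in each array, with Control arrays in blue and SAM arrays in red, a symbol for each replicate number and the mean ± SD (n = 3) beside them. Every panel spans the same height. Control replicate 2 (blue square) is the lowest of the 6 arrays in all 8 panels, and the groups are apart for CCNE1, CDK2 and CDC25A.

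The D-type cyclins did not differ beyond the spread between arrays. CCND1 (transcript cluster 16728261), which encodes cyclin D1 and is amplified or overexpressed in many breast cancers, had log2 signals of 9.30, 8.89 and 9.28 in Control replicates 1, 2 and 3 and of 9.07, 9.05 and 9.36 in the SAM replicates. The groups overlapped, and SAM replicate 3 was the highest array while SAM replicates 1 and 2 lay below Control replicates 1 and 3. The log2 fold change of CCND1 was 0.0026 (SE 0.17, 95% interval -0.38 to 0.39, limma adjusted p = 0.997). Without Control replicate 2 it was -0.13 (SE 0.16) and without SAM replicate 3 it was -0.10, so its direction turned with the loss of either array. CCND3 (transcript cluster 17019169), the gene of cyclin D3, read 5.79, 5.72 and 5.95 in the Control arrays and 5.95, 5.92 and 6.17 in the SAM arrays, with SAM replicate 2 below Control replicate 3. Its log2 fold change was 0.20 (SE 0.13, 95% interval -0.12 to 0.51), and 0.15 (SE 0.16) without Control replicate 2. For these 2 genes the 95% interval lay within a 1.5-fold change in both directions (0.58 on the log2 scale), whereas for the other 6 its upper end lay beyond it.

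The E-type cyclins, which activate CDK2 late in G1, had higher mean signals in SAM-treated cells. CCNE1 (transcript cluster 16860418), the gene of cyclin E1, read 7.21, 6.77 and 7.30 in the Control arrays and 7.68, 7.32 and 7.70 in the SAM arrays. The groups were apart, but SAM replicate 2 exceeded Control replicate 3 by little. The log2 fold change was 0.48 (SE 0.19, 95% interval 0.04 to 0.91, limma adjusted p = 0.613). Without Control replicate 2 it was 0.31 (SE 0.17, 95% interval -0.10 to 0.73). CCNE2 (transcript cluster 17079293), the gene of cyclin E2, read 7.003, 6.20 and 7.41 in the Control arrays and 7.93, 7.32 and 7.52 in the SAM arrays. It had the highest fold change of the 8 genes and also the widest spread, with an SD of 0.617 among Control arrays (n = 3). Its log2 fold change of 0.72 (SE 0.31, limma adjusted p = 0.627) was 0.38 (SE 0.23) without Control replicate 2, and in both cases the 95% interval included 0.

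CDK2 (transcript cluster 16752305), the kinase that both E-type cyclins activate, differed most steadily between the groups. It read 9.09, 8.99 and 9.15 in the Control arrays and 9.59, 9.39 and 9.61 in the SAM arrays, all SAM arrays lying above all Control arrays. The means were 9.07 ± 0.0795 and 9.53 ± 0.119 (SD, n = 3), a 1.37-fold higher level with SAM. On the log2 scale the fold change of CDK2 was 0.46 (SE 0.13, 95% interval 0.16 to 0.75, limma adjusted p = 0.574). CDK2 alone of the 8 genes met the P threshold of the methods, and it did not meet the fold change. It was the gene least affected by Control replicate 2, with a log2 fold change of 0.41 (SE 0.15) without that array, and its unadjusted P stayed under 0.05 whichever array was left out.

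CDC25A (transcript cluster 16953279), the phosphatase that activates CDK2, read 6.80, 6.28 and 6.86 in the Control arrays and 7.11, 7.16 and 7.28 in the SAM arrays. The SAM arrays lay close together and above all Control arrays, while Control replicate 2 lay well below the other Control arrays. The mean was 6.65 ± 0.318 in Control and 7.18 ± 0.0868 in SAM (SD, n = 3), with a log2 fold change of 0.54 (SE 0.18, 95% interval 0.12 to 0.95, limma adjusted p = 0.578). Without Control replicate 2 the difference was 0.35 (SE 0.14, 95% interval 0.01 to 0.70). CDC25A came nearest to the 1.5-fold minimum among the genes with a P under 0.05, and its promoter is among those shown with TTTGGCGC. After quantile normalization was repeated on the deposited values it passed both thresholds (log2 fold change 0.60, limma adjusted p = 0.583), as it did after cyclic loess (0.60, limma adjusted p = 0.563).

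E2F1 and CDC6, whose promoters hold the same word, had overlapping groups. E2F1 (transcript cluster 16918445), the transcription factor, read 7.62, 7.30 and 8.03 in the Control arrays and 7.85, 8.06 and 8.01 in the SAM arrays, and Control replicate 3 lay within the SAM range. E2F1 had a log2 fold change of 0.32 (SE 0.20, 95% interval -0.14 to 0.78), and 0.15 (SE 0.18) without Control replicate 2. CDC6 (transcript cluster 16834056), which loads the MCM helicase at replication origins, read 8.02, 7.92 and 8.58 in the Control arrays and 8.43, 8.31 and 8.74 in the SAM arrays. Control replicate 3 was above both SAM replicates 1 and 2, and the log2 fold change was 0.32 (SE 0.21, 95% interval -0.16 to 0.81), or 0.20 (SE 0.22) without Control replicate 2.

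**Figure D2:**
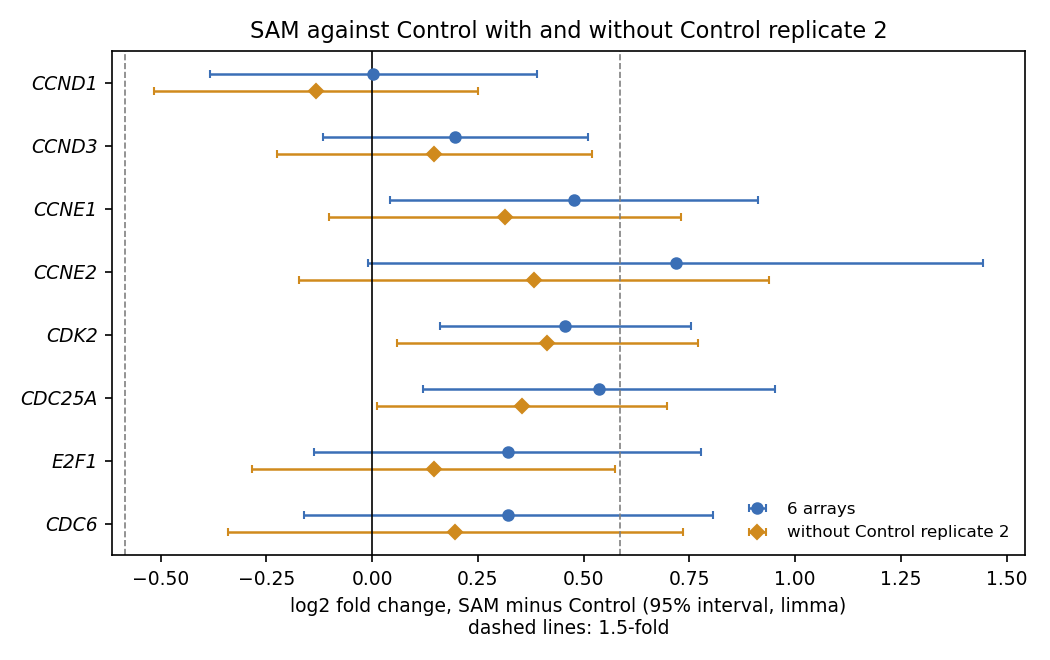
Log2 fold change (SAM minus Control) of the 8 genes with its 95% interval from limma, from 6 arrays (blue circles) and without Control replicate 2 (orange diamonds), with dashed lines at 1.5-fold. The intervals of CDK2 and CDC25A stay above 0 in both fits, that of CCNE1 only with 6 arrays, and the estimate of CCND1 moves from 0.0026 to -0.13.

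Control replicate 2 was the lowest of the 6 arrays for all 8 genes, which held for 15.2% of named genes. It was the lowest of the 3 Control arrays for 34.1% of named genes. For the 8 genes it lay below the mean of the other Control arrays by 0.13 (CDK2) to 1.01 (CCNE2) on the log2 scale. Leaving it out lowered the log2 fold change of all 8 genes, and the median over them from 0.39 to 0.26. Of the 8 genes 7 still had a value above 0, and 2 (CDK2 and CDC25A) had an unadjusted P under 0.05, against 3.01% of named genes that were higher at this P without the array. Without it 0 of 8 passed both thresholds of the methods, which 1.74% of transcript clusters then did.

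The counts also moved with other arrays. Without Control replicate 3, the highest of the controls for 7 of the 8 genes, 6 of 8 genes had a P under 0.05 in limma (2.48% of named genes) and 7 of 8 had groups apart (11.1%), CCND1 being the exception. Without SAM replicate 3 only CDK2 had a P under 0.05 (1 of 8, against 1.81%), and without SAM replicate 2 the groups were apart in 5 of 8 genes (12.3%). In bulk RNA of this kind, fewer cells in a phase of the cycle and less RNA of a gene in each cell cannot be told apart.

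Genes of DNA replication followed the same array. Of 38 genes of origin licensing and S phase, 22 had a transcript cluster. Control replicate 2 was the lowest of 6 arrays in 21 of them, as it was for 15.2% of named genes. The mean log2 signal of the 22 genes was 7.36 in Control replicate 2. It was 7.99 and 8.09 in Control replicates 1 and 3 and 7.91 to 8.13 in the SAM arrays. MCM5, a subunit of the replicative helicase, read 6.82 in that array and 8.13 and 8.36 in the other controls, the widest gap of the list, and is named here after its values were seen. None (0) of the 22 genes passed both thresholds, and 0 had a P under 0.05 in limma. Log2 fold changes were above 0 in 20 of 22 (median 0.25), against 45.8% of named genes. Without Control replicate 2 they were above 0 in 12 of 22 (median 0.02). The 3 genes with the smallest P were the uracil glycosylase UNG (log2 fold change 0.35, SE 0.21), the GINS subunit GINS4 (0.27, SE 0.17) and the ribonucleotide reductase subunit RRM2 (0.35, SE 0.23), with values of 0.16, 0.14 and 0.09 without that array.

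Genes of growth factor responses stood the other way in the same array. Of 16 measured immediate early and mitogen response genes (of 18), Control replicate 2 was the highest of the 6 arrays in 12, as it was for 16.3% of named genes, and their mean log2 signal was 8.77 there against 7.99 to 8.31 in the other 5. EGR1, an immediate early transcription factor, read 11.6 in Control replicate 2 and between 9.32 and 9.83 in the other arrays, and is named after its values were seen. The part of these differences in the G1 to S phase values was not tested.

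**Figure D3:**
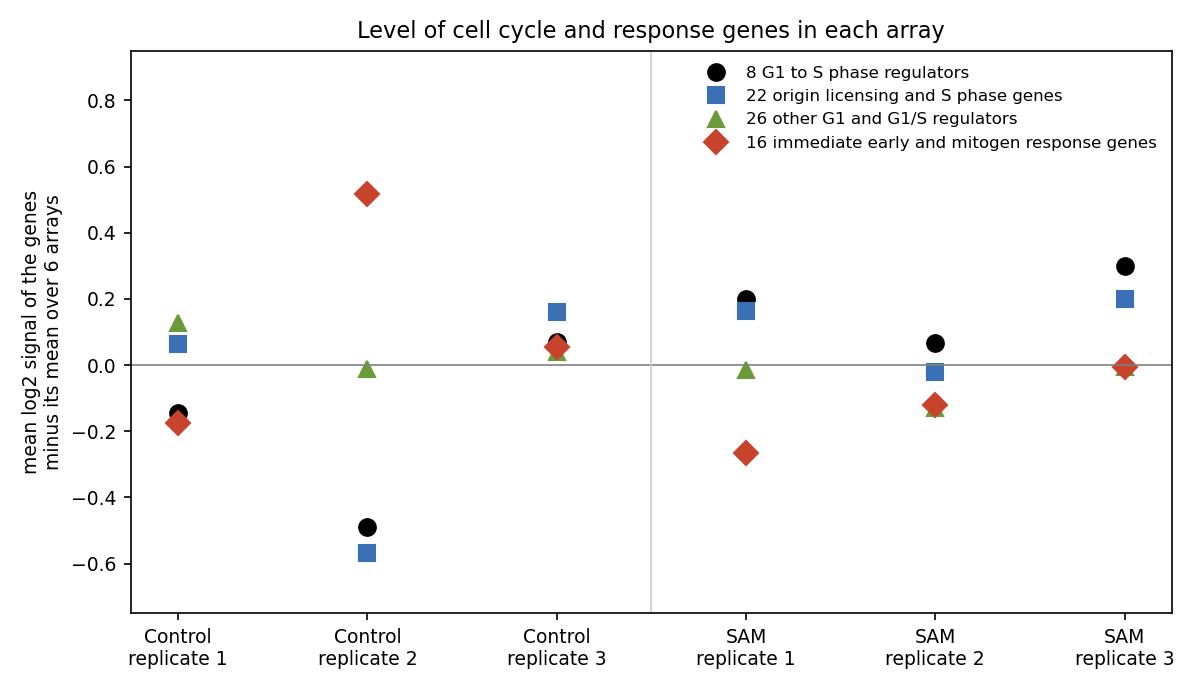
Mean log2 signal of the 8 G1 to S phase regulators and of 3 gene lists in each array, as the difference from the mean over 6 arrays. In Control replicate 2 the regulators and the origin licensing and S phase genes lie lowest, and the immediate early and mitogen response genes lie highest.

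Among 26 measured genes (of 37) that also regulate G1 and the G1 to S transition, 0 passed both thresholds. The log2 fold change was above 0 in 7 and below 0 in 19, with a median of -0.09 that stayed at -0.09 without Control replicate 2. In limma 2 of 26 were lower and 0 were higher at an unadjusted P under 0.05, against 5.58% of named genes that were lower at this P. Without Control replicate 2 there were also 2 (WEE1 and the ubiquitin ligase subunit SKP1, which is named after its values were seen), against 4.96%. SKP1 read only 4.08 to 4.93 in the 6 arrays, and its SAM values lay below the array medians of 4.75 to 4.85. WEE1, the kinase that places the inhibitory phosphate on cyclin-dependent kinases that CDC25 phosphatases remove, read 7.46, 7.15 and 7.42 in the Control arrays and 6.78, 6.79 and 7.01 in the SAM arrays. Its groups were apart, with a log2 fold change of -0.48 (SE 0.14, limma adjusted p = 0.574), and of -0.58 without Control replicate 2. CDK8, a kinase of the Mediator complex, was the other one with 6 arrays, at -0.34 on the log2 scale (SE 0.14, limma adjusted p = 0.621), but it was at -0.30 with a P over 0.05 without Control replicate 2. CCND2, the gene of the remaining D-type cyclin, had a log2 fold change of -0.39 (SE 0.17), or -0.33 without that array, with overlapping groups. CDKN2A, whose loss in this line is known, read 4.67 to 4.89 in the 6 arrays, close to the array medians of 4.75 to 4.85, and is also named after its values were seen.

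Of the 16 mitogen response genes, 0 passed both thresholds. At an unadjusted P under 0.05 in limma 3 were lower, against 5.58% of named genes. Without Control replicate 2 only 1 (SPRY4) was, against 4.96%. The list had a median of -0.20, or -0.06 without that array. SPRY4, a feedback inhibitor of receptor kinase signaling, read 8.87, 9.11 and 8.90 in the Control arrays and 8.25, 8.42 and 8.48 in the SAM arrays. The groups of SPRY4 were apart, and its log2 fold change of -0.58 (SE 0.13, limma adjusted p = 0.565) was just short of the 1.5-fold minimum. It was -0.50 without Control replicate 2. SPRY2, of the same family, had a log2 fold change of -0.52 (SE 0.17, limma adjusted p = 0.576), and ETV5, a transcription factor downstream of this signaling, of -0.42 (SE 0.17, limma adjusted p = 0.622). Without Control replicate 2 these were -0.39 and -0.38, both with a P over 0.05.

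**Figure D4:**
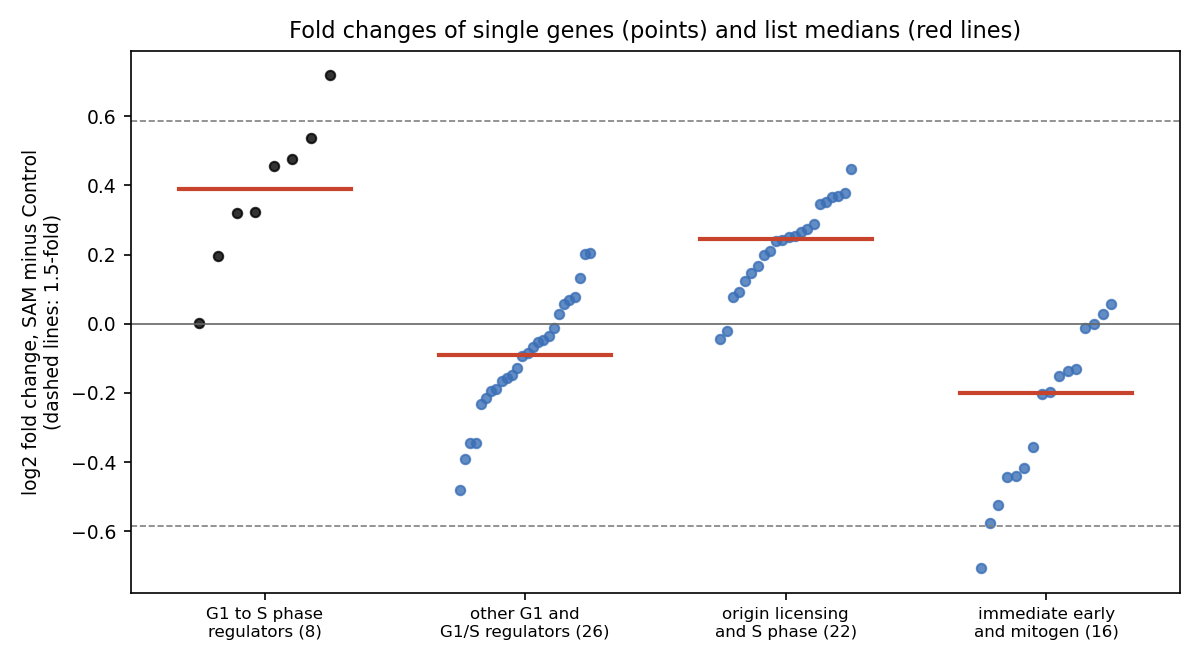
Log2 fold change (SAM minus Control) of each measured gene (points) and the median (red lines) for the 8 G1 to S phase regulators and 3 gene lists, with dashed lines at 1.5-fold. The medians are 0.39 for the regulators, -0.09 for other G1 and G1/S regulators, 0.25 for origin licensing and S phase genes and -0.20 for immediate early and mitogen response genes.

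The 5 measured carcinoma markers of MDA-MB-231 (VIM, CD44, MSN, EGFR and AXL) lay above the median of every array. Of these, CD44 had a log2 fold change of 0.41 (SE 0.14), VIM of -0.29 (SE 0.13) and EGFR of -0.16 (SE 0.16). Of 5 measured luminal markers, 4 lay above the median of every array and PGR (log2 fold change 0.38, SE 0.20) lay below it. ESR1 (0.32, SE 0.13) read between 4.80 and 5.37. GATA3 had a log2 fold change of -0.14 (SE 0.15). Of 7 measured leukocyte, endothelial and stromal markers, 4 lay above the median of every array and 2 below it. A level above the median therefore did not separate the 3 marker lists. LUM, KDR and CD68, a lysosomal protein of macrophages and other cells, had log2 fold changes of -0.43, -0.26 and 0.39. None (0) of these markers passed both thresholds. CD44, ESR1 and CD68, 1 of each list, were higher in SAM at an unadjusted P under 0.05 in limma with groups apart. Of all named genes 2.64% were higher at this P. At this P 0 of the markers were lower. VIM and MSN, the latter singled out after its values were seen, had all SAM arrays below all Control arrays, at a P over 0.05. Without Control replicate 2 CD44 (0.35) and ESR1 (0.36) had a P over 0.05, CD68 (0.41) stayed under it, and VIM (-0.37) and PGR (0.53) came under it. The part of these marker differences in the G1 to S phase values was not tested. The mean log2 signal of the leukocyte, endothelial and stromal list was 5.55 to 5.72 in Control arrays and 5.54 to 5.76 in SAM arrays. The mean correlation of an array with the others was lowest in Control replicate 1 (0.964, against 0.974 to 0.980), and the same measure did not set Control replicate 2 apart (0.979). The precision of all these values is limited by there being 3 arrays a group.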

How the data were processed

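The authors hybridized total RNA to Affymetrix Human Gene 2.0 ST arrays and processed them with oligo, a Bioconductor package, by RMA, in a version not given in the sources used here. The deposited values are therefore log2 signal intensities of transcript clusters, corrected for background and quantile-normalized by the authors, who state no filter. Quantile normalization aims at a common distribution of the arrays, so that values are relative within an array. The deposited values did not share 1 distribution exactly. Their medians ran from 4.75 in Control replicate 1 to 4.85 in SAM replicate 2. The 10 members, the gene lists and the tests were chosen with earlier results of these data known.

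SAM was compared with Control in limma 3.58.1 (lmFit and eBayes, R 4.3.3) on all 53617 transcript clusters, without filter, covariate or block, with Benjamini-Hochberg adjustment. Of these, 16098 have 1 gene symbol, 0 several and 37519 none in the platform annotation. The shares of named genes are over all 14884 gene symbols. Genes described singly were the 10 members and, in each list, any gene past both thresholds and the 3 with the smallest P. Others are marked as named or singled out after their values were seen. The procedure was tested on simulated data. Alternatives were leaving out each array, the replicate number as a block, 3 further normalizations, a trended and robust eBayes, the brighter transcript clusters only, averaging a gene's transcript clusters and other fold change minima. Motifs were searched in RefSeq promoter windows. Whether same-numbered arrays are pairs was checked by the correlation of their deviations from the group means. 1 further gene list is not reported here.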

Additional observations from a re-analysis of the deposited data

How the results depend on the processing

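The direction of CDK2, CDC25A, CCNE1, CCNE2, CCND3, E2F1 and CDC6 was kept under all 13 alternatives that give a fold change. CCND1, whose log2 fold change was 0.0026, ranged from -0.13 (without Control replicate 2) to 0.074 with 1 array left out, and was -0.036 with arrays centred on their medians. The number of genes past both thresholds (0 of 8) was 1 after repeated quantile normalization and after cyclic loess (CDC25A), 1 with no fold change minimum (CDK2), and 0 whichever array was left out. Of these alternatives, the share of all transcript clusters past both thresholds was computed only without Control replicate 2 (1.74%). The other counts therefore have no background beside them. With 1 array left out, the number with an unadjusted P under 0.05 ranged from 1 (without SAM replicate 3) to 6 (without Control replicate 3), and the number with groups apart from 3 to 7 (without Control replicate 3); the cause was not tested. With the replicate block, 4 genes had a P under 0.05, and 0 passed both thresholds. The shares of all genes under this block were not computed, so the count of 4 has no background beside it. Over all transcript clusters, arrays that share a number had correlations of -0.00267, -0.0748 and 0.109 in their deviations from the group means. These do not show pairs over the whole array. For the 8 genes the mean log2 signal kept the same order of replicates in both groups, with replicate 2 lowest. It was 7.60, 7.26 and 7.82 in Control and 7.95, 7.82 and 8.05 in SAM. The replicate block lowered the SE of each of the 8 genes, for CCNE1 from 0.187 to 0.128 and for CDK2 from 0.1272 to 0.12675. The unadjusted P in limma did not fall in every gene. It went from 0.036 to 0.013 for CCNE1 but from 0.0078 to 0.014 for CDK2, which then missed the P threshold of the methods. Whether the numbers mark pairs is not settled. With 3 arrays in a group the intervals are wide, and that of CCNE2 ran from -0.0088 to 1.44.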
